A study of Mus musculus with 8 samples.

Results

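The 100 transcripts described here were detected in mouse salivary gland tumors and in no salivary gland sample without a tumor, and they are the 100 with the highest tumor signal among those detected in that way. The tumors (T) were MEC-like tumors driven by CRTC1-MAML2, a fusion of CRTC1, a coactivator of CREB, with MAML2, a coactivator of Notch signaling, which is the recurrent fusion of human mucoepidermoid carcinoma (MEC). The tumor mice, mCre-CM(+), carried a CAG-driven human CRTC1-MAML2 transgene behind a loxP-flanked STOP cassette on the FVB/J background, together with MMTV-Cre, which removes the STOP cassette in ductal cells of the salivary gland. Normal glands (N) came from mCre-CM(–) littermates, which carried MMTV-Cre without the fusion transgene, and normal adjacent tissue (NAT) came from glands of tumor-bearing mice. T1 and NAT1 came from 1 mouse, T2 and NAT2 from another, N1 and N2 from a littermate of each, and T3 and T4 from further mice, so that N and NAT had 2 arrays each and T had 4. NAT therefore carried both transgenes, and the ages of these mice were not given in the sources used here. The source description of NAT2 named tumor 1 and that of T2 named adjacent tissue, against their titles, and both were grouped by title and tissue label.

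RNA was hybridized to 1-color Agilent arrays with probes for mouse long noncoding RNAs and mRNAs. A long noncoding RNA is a transcript that is not translated into a protein, and many such RNAs are made in few tissues, from their own promoters, from enhancers or from DNA opposite to or between protein-coding genes. An array probe measures whether RNA that pairs with it is abundant enough to be told from the glow of the empty glass, so an undetected transcript has only an upper limit, and it is not known to be silent. Each sample was bulk tissue, in which fewer cells of a type and less RNA per cell cannot be told apart.

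Members were chosen from the 58141 transcript probes carrying the array maker's ASMM10P identifiers, each on 1 spot of an array. The scanner software marks a spot as well above background when its signal clearly exceeds the local background, and 38847 probes were so marked on all 4 T arrays and 16607 on none of the N and NAT arrays. Both conditions together held for 2199 probes, which were 3.78% of all and 5.66% of those detected in every tumor. The members are the 100 of these with the highest mean over T of the scaled level, which is log2 intensity minus the 75th percentile of that array. They made up 4.55% of the tumor-only probes. The opposite pattern, with detection on all 4 N and NAT arrays and on no T array, held for 362 probes. Each T array had more of the ASMM10P probes well above background (71.1% to 77.6%) than any N or NAT array (58.6% to 67.0%). The part of this in both counts was not tested.

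The identifiers are not paired with gene names or sequences in the files used here, so the members are named by probe and neither their genes, their coding status nor their positions are given. For the same reason the fusion transgene, salivary gland markers and markers of other cell types could not be looked up. The 8 arrays shared a single slide that was scanned once. Its upper row (row 1) held T1, N1, N2 and NAT1, and row 2 held T2, T3, T4 and NAT2. No spot was saturated, and 58.6% (N2) to 77.6% (T2) of the ASMM10P probes were well above background. Of 300 negative control probes, 2.00% (N2) to 8.33% (T2 and T4) were also marked as well above background on an array. This share was higher on each T array (lowest 7%, in T3) than on any N or NAT array (highest 6%, in N1). Its part in the tumor-only count was not tested.

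The members ranged from bright to moderate in the tumors. Their T means ran from -0.46 to 6.80 with a median of 0.68, where 0 is the 75th percentile of the array, and 78 of the 100 lay above that percentile in the mean. In 35 members all 4 tumors were above it, and 28 members had a T mean over 2. By T mean the members held ranks 1144 to 17058 among the 58141 probes, so none of them gave one of the very brightest signals in the tumors. These ranks compare the signals of different probes and do not measure amounts of RNA.

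On the N and NAT arrays the members were near the lowest value that the software assigns. Their median scaled level was -5.92 in N1, -5.64 in N2, -5.31 in NAT1 and -5.55 in NAT2, against 1.44 in T1, 0.35 in T2, 1.43 in T3 and 0.70 in T4. In linear intensity the medians were 2.34, 2.07, 4.57 and 4.09 on the N1, N2, NAT1 and NAT2 arrays and 673, 445, 729 and 353 on T1 to T4. Every T value lay above every N and NAT value in all 100 members, with or without scaling, which the rule largely fixes. The median distance from the lowest T to the highest N or NAT value of a member was 4.09 log2 units, and it exceeded 4 in 53 members. ASMM10P049325 was the only member with a distance under 1. Its lowest T value, -3.06 in T2, lay 0.29 above its N2 value of -3.35.

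**Figure D1:**
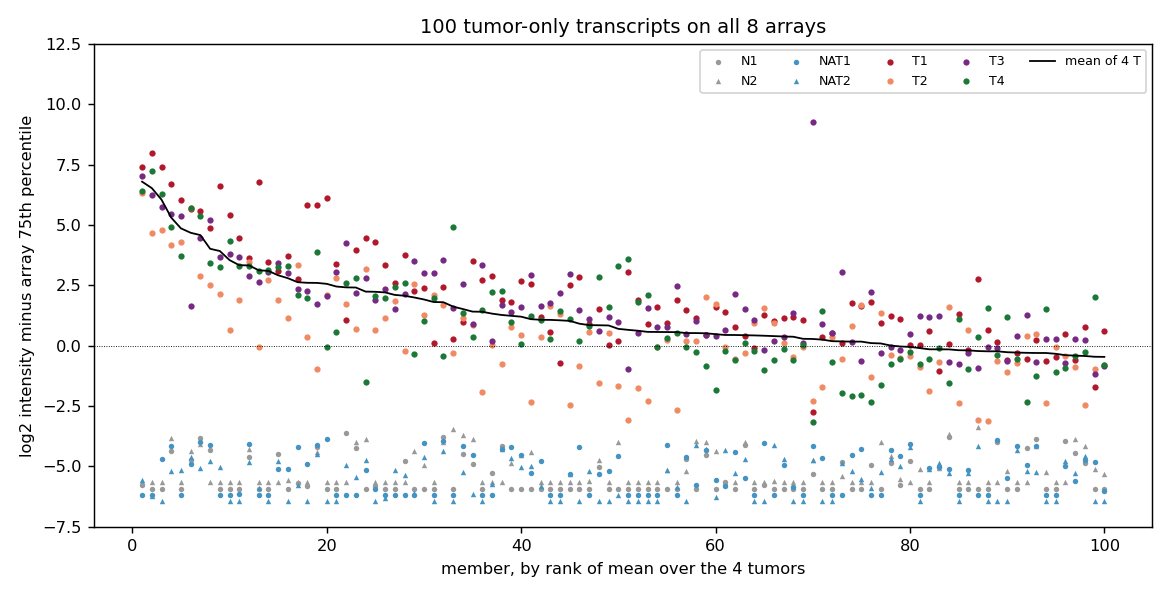
Scaled level (log2 intensity minus the 75th percentile of the array) of the 100 members on all 8 arrays, with 1 point per array and the members ordered by their mean over the 4 T arrays (black line). The N and NAT points lie below the T points of the same member throughout. The T points of 1 member spread over up to 12.4 log2 units, in ASMM10P051978, whose T3 spot was marked as an outlier. In the 98 members without a marked spot they spread over up to 6.85.

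Since the N and NAT signals are below the detection limit, a fold is given as a bound, with the lowest signal among probes well above background of each N or NAT array as the floor. Scaled, this floor was -3.60 in N1, -3.31 in N2, -3.87 in NAT1 and -4.09 in NAT2. The T mean was at least 7.96-fold to at least 1219-fold above N, with a median bound of 17.6-fold, and at least 11.5-fold to 1757-fold above NAT, with a median bound of 25.3-fold. The bound over N reached 16-fold in 56 members, 32-fold in 33 and 64-fold in 20. The bounds hold for the background correction of the scanner software. With normexp background correction (offset 50) in its place the median bounds were 4.64-fold over N and 6.29-fold over NAT, and the bound over N was 2.24-fold for ASMM10P036777, the member with the lowest T mean. In members carried by 1 tumor the bound over N also rests on that array, and it fell from 13.3-fold to 1.67-fold for ASMM10P051978 without T3, whose spot is described below as an outlier, and from 7.99-fold to 4.52-fold for ASMM10P006833 without T4. These bounds describe how the members were chosen and follow the order of their T means. In the limma fit over all 47176 probes tested, all 100 members were called higher in T than in N and in T than in NAT, against 27.4% and 20.5% of all probes, and since the rule used the same contrasts nothing is read from this. Without scaling between arrays the T arrays shift upward by 1.14 log2 units against N and by 0.52 against NAT, so an unscaled fold would be larger.

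ASMM10P042899 had the highest T mean, 6.80 ± 0.51 (SD, n = 4). It stood at 7.39 in T1, 6.32 in T2, 7.04 in T3 and 6.43 in T4, and between -6.20 and -5.56 on the N and NAT arrays. In linear intensity this was 18596 to 41873 in the tumors and 2.07 to 4.06 elsewhere, and the bounds were 1219-fold over N and 1757-fold over NAT, or 249.7-fold and 337-fold with normexp. The tumors were close to each other here, and the N and NAT arrays lay within 1 log2 unit of each other, far below them.

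The next members in order were ASMM10P010374 and ASMM10P010373, whose numbers follow each other. ASMM10P010374 stood at 7.97 in T1, 4.67 in T2, 6.26 in T3 and 7.22 in T4 (mean 6.53 ± 1.42), and ASMM10P010373 at 7.41, 4.79, 5.74 and 6.27 in the same order (mean 6.05). Both were highest in T1 and lowest in T2, and the order of the tumors was the same in both. On N and NAT arrays ASMM10P010374 did not exceed -5.64, and ASMM10P010373 did not exceed -4.70, its value in NAT1.

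ASMM10P031996 had a T mean of 5.31 ± 1.06, with 6.68 in T1, 4.17 in T2, 5.48 in T3 and 4.90 in T4. ASMM10P042401 had a T mean of 4.86 ± 1.04, with 6.04 in T1, 4.29 in T2, 5.39 in T3 and 3.73 in T4. T1 was again the highest tumor in each, while the lowest was T2 in the first and T4 in the second. The level on N and NAT arrays reached -3.82 (N2) for ASMM10P031996, which is below the floor of that array, and -5.13 (NAT2) for ASMM10P042401.

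ASMM10P051894 split the tumors in another way. It stood at 5.67 in T1, 5.72 in T2 and 5.69 in T4, but at 1.65 in T3, so that T3 lay 4.02 log2 units below the next tumor while the other 3 were nearly equal. The T3 value was still far above its N and NAT values of -4.90 to -4.36. No spot of this probe was marked as an outlier by the scanner software.

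ASMM10P005076 (T mean 4.58 ± 1.23) and ASMM10P025152 (4.02 ± 1.26) were lowest in T2, at 2.89 and 2.52, and highest in T1 at 5.60 and in T3 at 5.22, respectively. ASMM10P052393 (3.92 ± 1.91) stood at 6.61 in T1 against 2.14 to 3.67 in the other tumors. ASMM10P006207 (3.55 ± 2.06) stood at 5.42 in T1, 3.81 in T3 and 4.33 in T4, and at 0.63 in T2. Of the 10 brightest members 8 were highest in T1 and 8 were lowest in T2.

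**Figure D2:**
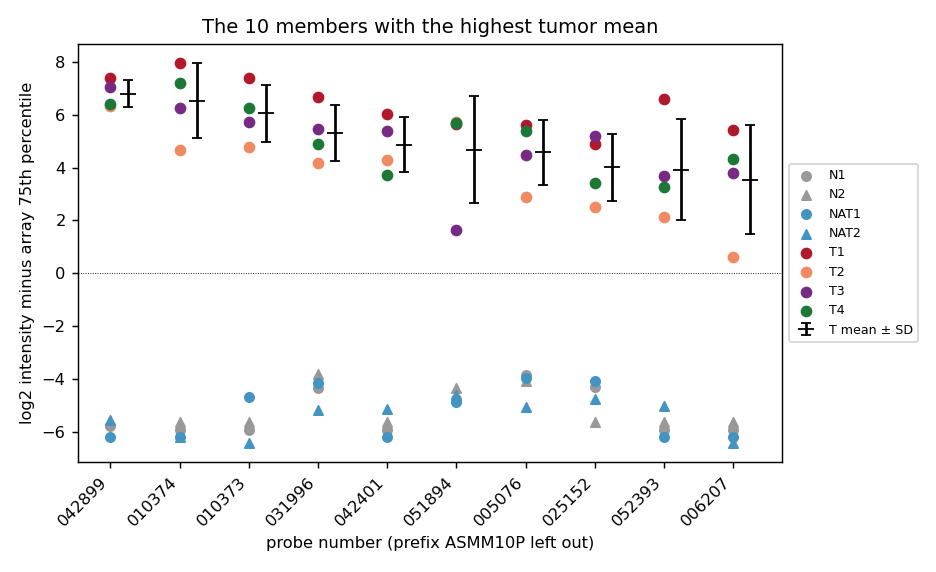
Scaled level (log2 intensity minus the 75th percentile of the array) of the 10 members with the highest T mean, with 1 point per array and the mean ± SD of the 4 T arrays beside them. T2 (light orange) is the lowest tumor in 8 of the 10, and T3 is the low tumor in ASMM10P051894.

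The members differed widely among the 4 tumors. The SD of a member over the T arrays had a median of 1.24 log2 units (interquartile range 0.72 to 1.68), and 62 of the 100 had an SD over 1. The highest and lowest tumor differed at least 4-fold in 64 members and at least 16-fold in 22. Only 9 members had an SD under 0.5. The spread was alike for bright and moderate members, with a median SD of 1.27 for the 28 with a T mean over 2 and 1.22 for the other 72.

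The same measures were smaller in other transcripts. In the 2099 other tumor-only probes, which are fainter, the median SD was 0.47, 11.1% had an SD over 1 and 15.7% differed at least 4-fold between tumors. In the 16253 probes detected on all 8 arrays with a T mean at or above that of the lowest member, the median SD was 0.39, 8.53% had an SD over 1 and 11.3% differed at least 4-fold. At the other end, 66.4% of those 16253 probes and 54.2% of the other tumor-only probes had an SD under 0.5, against 9 of the 100 members. These values describe T levels that the rule used through their mean, which a single bright tumor can raise, and no test of the difference was made.

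**Figure D3:**
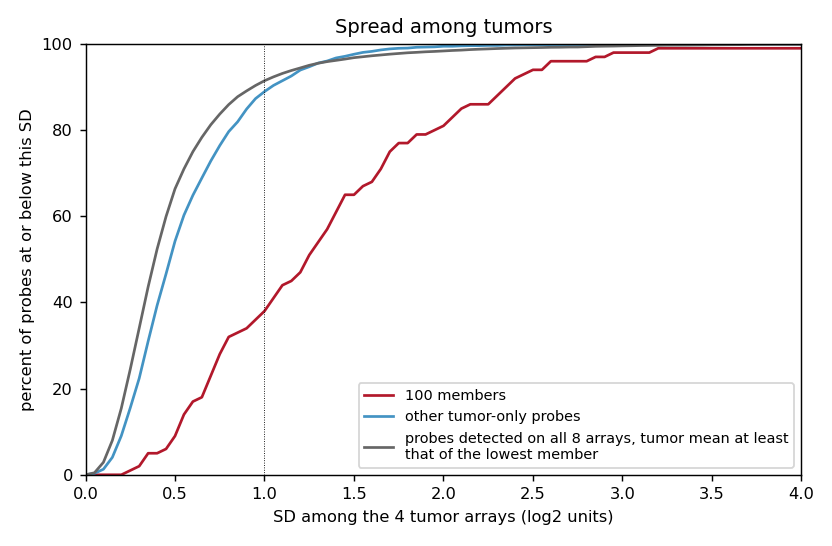
Cumulative percent of probes (vertical axis) whose SD among the 4 T arrays, in log2 units, is at or below the value on the horizontal axis, for the 100 members, the 2099 other tumor-only probes and the 16253 probes detected on all 8 arrays with a T mean at or above that of the lowest member. At an SD of 1 (dotted line) 62 of the 100 members lie to the right, against 11.1% and 8.53% of the other sets; 1 member lies beyond the right edge.

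The steadiest members were not the brightest ones. ASMM10P050247 had the smallest SD, 0.21, with 0.90 in T1, 0.59 in T2, 1.11 in T3 and 0.83 in T4. ASMM10P043112 (T mean 3.10 ± 0.30), ASMM10P036818 (3.33 ± 0.32), ASMM10P057246 (0.57 ± 0.34) and ASMM10P005510 (-0.23 ± 0.35) followed. ASMM10P043112 stood between 2.74 and 3.47 in the tumors, and was at the lowest assigned signal on all 4 N and NAT arrays, with a bound of 94.0-fold over N, or 19.9-fold with normexp. These 5 members thus covered T levels from below the 75th percentile to well above it, with the tumors within 1 log2 unit of each other.

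The largest SD, 6.01, belonged to ASMM10P051978 and came from 1 spot. Its intensity was 167791 in T3 and 37.3, 71.7 and 24.5 in T1, T2 and T4, and the scanner software had marked the T3 spot as an outlier. The spot beside it, a control for an external spike-in RNA, was likewise marked on T3, with 236429 there against 8.93 to 14.7 on the other tumors. Without the marked spot the T mean of ASMM10P051978 was -2.72 ± 0.43 (n = 3) in place of 0.28. ASMM10P018627, also marked on T3, had 2269 there against 55.6 to 273 in the other tumors, and a T mean of -0.79 ± 1.07 (n = 3) without that spot in place of 0.18. Both fall out of the strongest 100 when marked spots are left out, and the other 98 stay. The limma fit left out T3 for both probes.

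In the remaining 98 members the largest SD was 3.20, in ASMM10P004628. This transcript stood at 3.06 in T1, -3.06 in T2, -0.95 in T3 and 3.58 in T4, a range of over 6 log2 units. ASMM10P007261 (SD 2.92) ran from -0.98 in T2 through 1.71 in T3 and 3.87 in T4 to 5.81 in T1. ASMM10P039585 (SD 2.82) ran from -0.05 in T2 to 6.80 in T1, with 2.64 in T3 and 3.11 in T4, which at 6.85 was the widest range among these 98. ASMM10P026522 (SD 2.58) stood at 6.14 in T1, near 2 in T2 and T3 (2.11 and 2.05) and at -0.04 in T4. T1 was the highest tumor in 3 of these 4 members and T2 the lowest in 3.

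Across all 100 members the highest tumor was T1 in 46, T3 in 32, T4 in 12 and T2 in 10. The lowest was T2 in 52, T4 in 37, T1 in 7 and T3 in 4. In 28 members T1 was the highest and T2 the lowest, in 15 T1 and T4, in 14 T3 and T2, and in 13 T3 and T4. Among the 16253 probes detected on all 8 arrays at such levels, T1 was highest in 31.9%, T2 in 19.8%, T3 in 16.8% and T4 in 31.6%, and the lowest was T1 in 16.6%, T2 in 53.0%, T3 in 8.53% and T4 in 21.9%. The share with T2 lowest was therefore near that of the members, while the members' share with T4 lowest was above, and those with T1 and T3 lowest below, the shares in these probes. The members' shares for T1 and T3 highest were above, and those for T2 and T4 below. Without scaling T4 in place of T2 was the tumor most often lowest, with T4 lowest in 51 members and T2 in 38, against 53.1% and 18.4% of the comparison probes. T1 was then lowest in 7 members and T3 in 4, against 24.1% and 4.41%. Of the differences in the lowest tumor, only the shortfall for T1 was thus clear both with and without scaling. Unscaled, T1 was highest in 44 members, T3 in 28, T2 in 16 and T4 in 12, against 21.2%, 24.4%, 44.6% and 9.79% of the comparison probes in the same order of T1, T3, T2 and T4. For the highest tumor, the members' excess for T3 was thus small and their shortfall for T4 absent without scaling. The share with T1 highest was above, and that with T2 highest below, that of the comparison probes both with and without scaling. These shares describe T levels that the rule used, and their differences were not tested. T1 is the only tumor in row 1 of the slide, so that row and that tumor cannot be told apart.

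**Figure D4:**
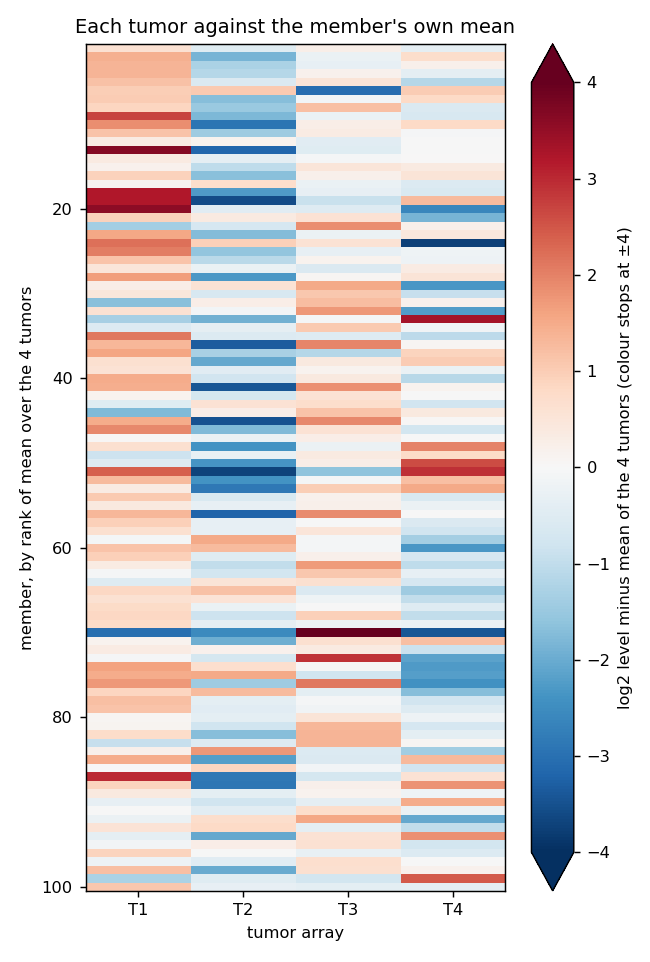
Level of each member in each T array minus the member's mean over the 4 T arrays, in log2 units (color, which stops at 4 in either direction), with members ordered from the highest T mean at the top. Red bands are most frequent in T1 and T3 and blue bands in T2 and T4, and the dark T3 band near rank 70 is ASMM10P051978, whose T3 spot was marked as an outlier.

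Single tumors stood apart from the other 3 in a minority of members. In 12 members 1 tumor was at least 4-fold above the next (T1 in 7, T4 in 3 and T3 in 2), and in 26 members 1 tumor was at least 4-fold below the next (T2 in 17, T4 in 7, T1 in 1 and T3 in 1), with 3 members in both counts. Among the 16253 comparison probes 2.77% had 1 tumor at least 4-fold above the next, which was T2 in 338 of 451, and 1.14% had 1 tumor at least 4-fold below the next. T2 was highest by that margin in 0 members. The 26 members with 1 low tumor became 15 under normexp (T2 in 11 and T4 in 3) and 20 without scaling (T2 in 11 and T4 in 8), while the 12 with 1 high tumor became 13 and 14. The 2 members with T3 highest by that margin were ASMM10P051978 and ASMM10P018627, the members with a marked spot. ASMM10P008085 had the widest such gap at the low end, with -1.48 in T4 against 2.81 to 4.45 in the other tumors. Between pairs of tumors, T1 and T2 differed at least 4-fold in 38 members, 37 of them higher in T1, and T2 and T4 in 41, 28 of them higher in T4. T2 and T3 differed by that much in 31 members, of which 28 were higher in T3. The closest pairs were T1 and T3 with 19 members and T3 and T4 with 20. In the 16253 comparison probes these shares were 1.78% to 6.07% over the 6 pairs, and among the probes that differed at least 4-fold T2 was more often the higher one in each of its 3 pairs, with 653 probes higher in T2 and 333 in T1, 431 in T2 and 239 in T3, and 625 in T2 and 356 in T4.

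The levels of the 100 members in 1 tumor followed those in another loosely. Pearson's r across the members was 0.39 (T2 with T4) to 0.68 (T1 with T4), against 0.89 to 0.96 across the 16253 comparison probes. Probes are not independent replicates, the arrays share 1 slide and 1 scaling, and the SD of the T means over the members (1.64) was smaller than over the comparison probes (2.42), so these coefficients are given as a description.

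Traces below the detection call were marked in more members on each NAT array than on either N array. A weaker mark of the same software, given when a signal is positive and differs from the local background, was set for 39 members in N1, 43 in N2, 61 in NAT1 and 63 in NAT2. Among 300 negative control probes the same mark was set for 28.3%, 31.7%, 29.0% and 31.0% on these arrays, and among the 9439 ASMM10P probes undetected on all 8 arrays for 23.1%, 24.6%, 27.2% and 31.1%. The share in the members was thus above that of both sets on all 4 arrays, and by a wider margin on the NAT arrays than on the N arrays. In the 2099 other tumor-only probes it was higher than in the members on every array, with 61.7%, 57.6%, 84.5% and 79.5%. Both NAT arrays also had more of all ASMM10P probes well above background (65.3% and 67.0% against 60.8% and 58.6% in N1 and N2) and a higher 75th percentile (log2 7.50 and 7.58 against 7.15 and 6.69), and the part of this in the traces was not tested. No test of the shares was made either, and the mark belongs to the same arrays on which the rule required no detection.

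By member, 18 carried the weaker mark on all 4 N and NAT arrays and 17 on none. It was set on both NAT arrays and on neither N array in 9 members, and on both N and neither NAT array in 0, against 8.72% and 0.38% of the 2099 other tumor-only probes and 3.20% and 1.26% of the 9439 undetected probes. The members' share was thus near that of the other tumor-only probes. The 17 members without any such mark were at the lowest assigned signal on all 4 arrays, and their T means ran from -0.33 to 3.55 with a median of 0.62. The brightest of these were ASMM10P006207, ASMM10P043112 and ASMM10P042396, with T means of 3.55, 3.10 and 2.45. If the weaker mark is used in place of the detection call, 712 probes are tumor-only and these 17 are the members that remain.

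Levels in NAT and N could not be compared in the members, since all of them were below the detection call in both groups by the rule, and no fold is given. In the limma fit 0 of the 100 differed between NAT and N after adjustment, against 0% of all 47176 probes, which for members without a measured level says nothing about whether the groups differ, and 3 members had an unadjusted p under 0.05 by limma against 4.24% of all probes.

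The membership rested on NAT1 more than on any other array. NAT1 alone kept out 1065 probes that were detected on all 4 T arrays and on no other N or NAT array, and NAT2 alone kept out 662, against 71 for N1 and 57 for N2. Of the 1065, 96 had a T mean at or above that of the lowest member, with NAT1 levels of -3.86 to 3.30 and a median of -2.62, and of the 662, 37 did, with NAT2 levels of -4.05 to -1.19 and a median of -3.54. Without NAT1 the tumor-only probes number 3264, and 60 of the 100 members stay. The strongest kept out by NAT1 was ASMM10P042050, with a T mean of 4.85 ± 0.66 and a NAT1 level of -2.47 against -5.92 in N1, -3.67 in N2 and -4.66 in NAT2. The strongest kept out by NAT2 was ASMM10P022539, with a T mean of 5.91 ± 0.55 and a NAT2 level of -3.99, just over the floor of that array. These 2 transcripts would rank among the 10 brightest members by T mean but for 1 array each, and were named after their values were seen.

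At the lower edge the members run on without a gap. ASMM10P006833 at rank 99 and ASMM10P036777 at rank 100 had T means of -0.457 and -0.461, and the next probes, ASMM10P026887 and ASMM10P004077, had -0.467 and -0.480. ASMM10P006833 owed its place to T4, with 2.01 there against -1.71 to -0.95 in the other tumors. ASMM10P036777 likewise stood at 0.62 in T1 and between -0.85 and -0.80 in the other tumors.

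Several members carried probe numbers close to each other. Within a distance of 10 numbers there were 6 such groups with 13 members, namely ASMM10P010373 and ASMM10P010374, ASMM10P011784, ASMM10P011787 and ASMM10P011788, ASMM10P030222 and ASMM10P030223, ASMM10P031535 and ASMM10P031539, ASMM10P042396 and ASMM10P042401, and ASMM10P051233 and ASMM10P051234. The files do not say whether neighboring numbers belong to 1 gene, and over all probes detected in every tumor neighbors were little more alike than distant ones. The largest difference between 2 consecutive probes on a T array, after taking out their mean difference, had a median of 0.71 log2 units over 26709 pairs, against 0.75 over 25458 pairs whose numbers lay 1000 apart. Among the tumor-only probes these medians were 0.91 over 86 pairs and 0.99 over 82 pairs.

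The 3 probes ASMM10P011784, ASMM10P011787 and ASMM10P011788 had nearly the same profile. ASMM10P011784 stood at 2.55 in T1, -2.33 in T2, 2.94 in T3 and 1.23 in T4, ASMM10P011787 at 2.51, -2.45, 2.96 and 1.09, and ASMM10P011788 at 1.89, -2.65, 2.47 and 0.55. After the mean difference, the 3 pairs differed by at most 0.09 to 0.27 on any T array, although their spots lay 74 to 267 rows apart. T2 was over 3 log2 units below the next tumor in each. The probes numbered between them, ASMM10P011785 and ASMM10P011786, were not tumor-only, and ASMM10P011783 was detected on all 8 arrays.

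The pairs ASMM10P031535 and ASMM10P031539 (at most 0.11 after the mean difference) and ASMM10P030222 and ASMM10P030223 (at most 0.21) were as close. ASMM10P030222 stood at -0.72 in T1 against 1.31 to 2.18 in the other tumors, and ASMM10P030223 at 0.13 against 1.99 to 3.03, which made them 2 of the 7 members that were lowest in T1. After the mean difference, ASMM10P010373 and ASMM10P010374 differed by at most 0.59 and ASMM10P042396 and ASMM10P042401 by at most 0.95, while their levels as measured differed by up to 0.95 and 3.16. ASMM10P051233 and ASMM10P051234 differed by up to 2.24 after the mean difference, since the first was highest in T4 (2.10) and the second in T1 (2.83), and this exceeded all of the medians above. The difference of 0.95 for ASMM10P042396 and ASMM10P042401 also exceeded them, except that of the tumor-only pairs 1000 apart.

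**Figure D5:**
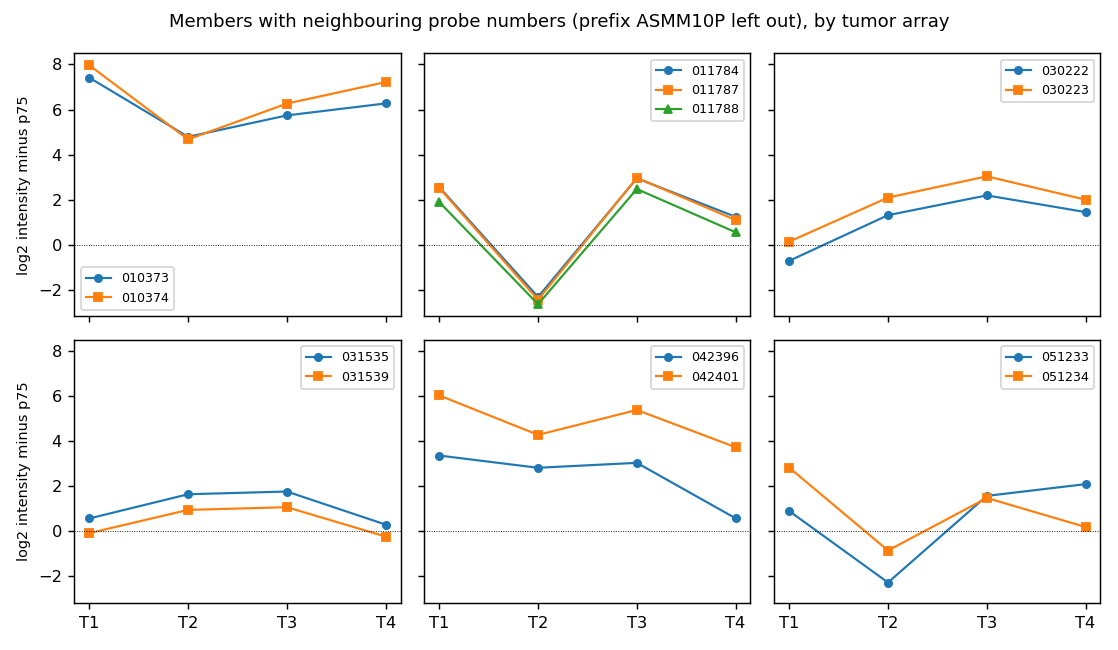
Scaled level (log2 intensity minus the 75th percentile, p75, of the array) in T1 to T4 of the 13 members whose probe numbers lie within 10 of each other, 1 panel per group and 1 line per probe. The lines run side by side in the first 4 panels, with T2 far below the other tumors in the 3 probes of the second panel, and diverge in the last.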

How the data were processed

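The authors deposited scanner output of 8 arrays (Agilent Feature Extraction 11.0.1.1, per the labels) as linear spot intensity from which the software had removed background, with no normalization between arrays. A deposited table of log2 values for 42830 probes, whose normalization is not given in the sources used here, holds 98 of the 100 members; it served for this check and as an alternative. Levels are log2 intensity, less the 75th percentile over noncontrol spots of the same array. The members and all lists were chosen with earlier results of these data known. Named members are the 10 with the highest T mean, the 5 with the largest and 5 with the smallest SD among T, and those at ranks 99 and 100, beside the next 2 probes, which are not members. Other probes are named where a count rests on them. For the 3 comparisons, a linear model of N, NAT and T was fitted in limma 3.58.1 under R 4.3.3 to 47176 probes detected on 2 arrays or more, without outlier spots, with moderated tests and Benjamini-Hochberg adjustment (FDR at most 0.05, fold at least 2). The script was tested on simulated data. Counts and figures were made with Python 3.11.15. NAT and T arrays 1 and 2 pair by mouse, per their titles and the authors' account, although the source descriptions of NAT2 and T2 differ. N pairs by litter, per the labels. Deviations from group means correlated between -0.25 (NAT2 with T2) and 0.15 (N1 with NAT1) over the 6 same-numbered pairs. In N and in NAT the deviations of arrays 1 and 2 mirror each other. The value for N2 with NAT2 therefore repeats that for N1 with NAT1, and the 6 pairs are not separate checks. The number of arrays limits the precision. The planned marker lists were not run for lack of gene names.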

Additional observations from a re-analysis of the deposited data

Results flagged for a closer look

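Among the members named above, 3 had a tumor that stood apart from the other 3, judged by the gap to the nearest tumor as a share of the whole range against Dixon's 95% limit for 4 values. In ASMM10P051894 this share was 0.99, with T3 low at 1.65 and the other tumors at 5.67 to 5.72. In ASMM10P051978 it was 0.93, with T3 high at 9.28 and the others at -3.14 to -2.28, and the T3 spot was marked as an outlier by the scanner software. In ASMM10P036777 it was 0.97, with T1 high at 0.62 and the others at -0.85 to -0.80. Over all 100 members 6 passed the limit, 4 with a high and 2 with a low tumor, against 9.16% of the 16253 probes detected on all 8 arrays at such levels, and chance passes about 1 in 20 groups. The rule used these T values through their mean, and the named members were picked by level, spread or rank. The shares and counts are therefore a description only.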

How the results depend on the processing

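With the weaker mark in place of the detection call, 17 of the 100 members remained, and in the replaced set, the strongest 100 of the 712 probes then tumor-only, the median log2 bounds were 1.60 over N and 2.13 over NAT, the median SD among tumors was 1.03, and T2 and T3 were each highest in 19. For the same 100 members, normexp background correction gave median bounds of 2.21 and 2.65 (4.13 and 4.66 in the reported values) and a median SD of 1.06. Without scaling between arrays T2 was highest in 16. Leaving out 1 array at a time, 60 (without NAT1) to 100 members stayed, while over the original 100 the median bounds ran from 3.99 to 4.68 over N and from 4.55 to 5.20 over NAT (both highest without T2), and the median SD from 0.89 (without T2) to 1.26. T1 was then highest in 46 to 65, T2 in 10 to 17, T3 in 32 to 55 and T4 in 12 to 28, the last 2 upper values being without T1. Members called in T versus N numbered 96 to 100 and in T versus NAT 90 to 100, and 0 in NAT versus N. Normexp gave 82 and 85 calls in T versus N and T versus NAT, and the methods' t-test with the same fold limit 98 and 99 before Benjamini-Hochberg adjustment (25.6% and 19.6% of all probes) and 90 and 80 after it (20.5% and 10.4%), with 3 (0.66% of all probes) and 0 (0%) in NAT versus N. With the replicate number as a block 99 and 98 members were called higher in T than in N and NAT and 0 differed between NAT and N, and the slide row as a block gave 100, 100 and 0. The share of all probes called is given only for the reported limma fit and the t-test. Since the rule used the T contrasts, nothing is read from any of these counts. The other 159 alternative values of these results moved by at most 1.5 times or by less than 1 SD. Of the 574 alternative bounds for the 22 named members 0 reversed, which the rule largely fixes, so nothing is read from it. By a limit of 1.5 times, all 44 bounds under normexp were lower, and of 352 bounds with 1 array left out 40 shifted, 18 of them downward, in 10 members. The largest falls over N were those of ASMM10P051978 without T3 (log2 3.74 to 0.74) and, without T1, of ASMM10P039585 (6.58 to 5.36), ASMM10P026522 (6.02 to 4.83) and ASMM10P007261 (6.06 to 4.99). In each of these members the array left out held its highest T value, so its T mean was lower without that array. What lay behind the other shifts was not tested. Signal over background limits the N and NAT side of every fold, 4 tumors limit every SD, and the absence of gene names limits every statement to probes. Leave-1-out and block values and the t-test were planned, while leaving out outlier spots, no scaling and the slide row were chosen after seeing the data.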

Other observations

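Some transcripts were detected in 1 tumor alone. Among ASMM10P probes well above background on no N or NAT array, 502 were detected only in T1, 1266 only in T2, 221 only in T3 and 435 only in T4. Few of the probes detected in 1 tumor alone were bright. A level in that tumor at or above the lowest T mean among the members was found in 1, 7, 3 and 9 of them for T1 to T4. When spots marked as outliers were left out, these were 0, 6, 1 and 4. Conversely, 182 probes were detected in every tumor except T1, 113 in every tumor except T2, 211 except T3 and 687 except T4, and T4 is the array with the lowest share of probes well above background among the tumors.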
